A study of Mus musculus with 4 samples.

Results

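White adipocyte genes, which encode adipokines and the proteins that take up, store and release fat in white fat cells, were examined in mouse mammary tissue with and without the transcription factor STAT5. The list held 34 genes. A gene was measured where the platform annotation gave its exact symbol to a probe set, and 29 of the 34 genes were found this way, among 18193 genes with a probe set. Cfd, Plin1, Adrb3, Acsl1 and Tusc5 were not analysed here. Where a gene had several probe sets, that with the highest mean log2 signal stood for it, and all 29 lay above the limit for testing, a mean signal of 126, as did 11360 genes of the array. RNA came from 2 animals labelled STAT5 WT and 2 labelled STAT5 KO, each on its own Affymetrix array. The tissue was mammary and untreated in both groups, and it was collected at 6 days per the design text, which does not say what the days count from. The allele, any Cre promoter, the strain and the age are not given in the sources used here.

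The adult mouse mammary gland is a tree of epithelium embedded in a pad of white fat, so RNA of the whole tissue carries transcripts of adipocytes as well as of milk-producing cells. White adipocytes store triglyceride in a single large droplet, release fatty acids by lipolysis when catecholamines signal, and stop doing so under insulin. STAT5 is activated by prolactin in the epithelium and by growth hormone in many tissues, fat included. In RNA of a whole tissue, fewer cells of a type and less RNA per cell cannot be told apart.

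The arrays were alike in technical measures. Median signals were 121 to 131, the 3'/5' signal ratio of actin was 1.12 to 1.21 and that of Gapdh was 0.771 to 0.799. The Stat5a probe set gave signals of 2307 (WT replicate 1), 2061 (WT replicate 2), 1836 (KO replicate 1) and 861 (KO replicate 2), and that of Stat5b gave 1522, 1506, 1069 and 712 in this order. Both were lower on both KO arrays, and neither passed the test (limma adjusted p = 0.246 and 0.102). Which part of which gene was deleted is not given in the sources used here, so these probe sets may lie outside it.

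Adipocyte transcripts were strongly present on all 4 arrays, and by their brightest probe sets several were close to level across them. Of the 29 genes, 24 had a mean signal in the top 5% of all probe sets, among them the adipocyte-defining Adipoq, Fabp4, Lpl, Lipe and Pparg, so the labelled tissue was measured with its fat. Signals of different probe sets do not rank genes by transcript amount, and these positions show only where on the array's scale each gene was read. For 7 of the 29 genes, the highest of the 4 arrays was less than 1.25 times the lowest, and for 14 it was less than 1.5 times the lowest. These counts have no share over all genes beside them and describe the list alone. Between the genotypes, 7 of the 29 (24.1%) differed by more than 1.5-fold, against 12.8% of all genes tested. Among the 828 genes tested that were as bright as the lower quartile of the 29 or brighter, 6.4% did. Dimmer probe sets of Fabp4 and Car3 differed more than the bright ones, as given below.

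**Figure D1:**
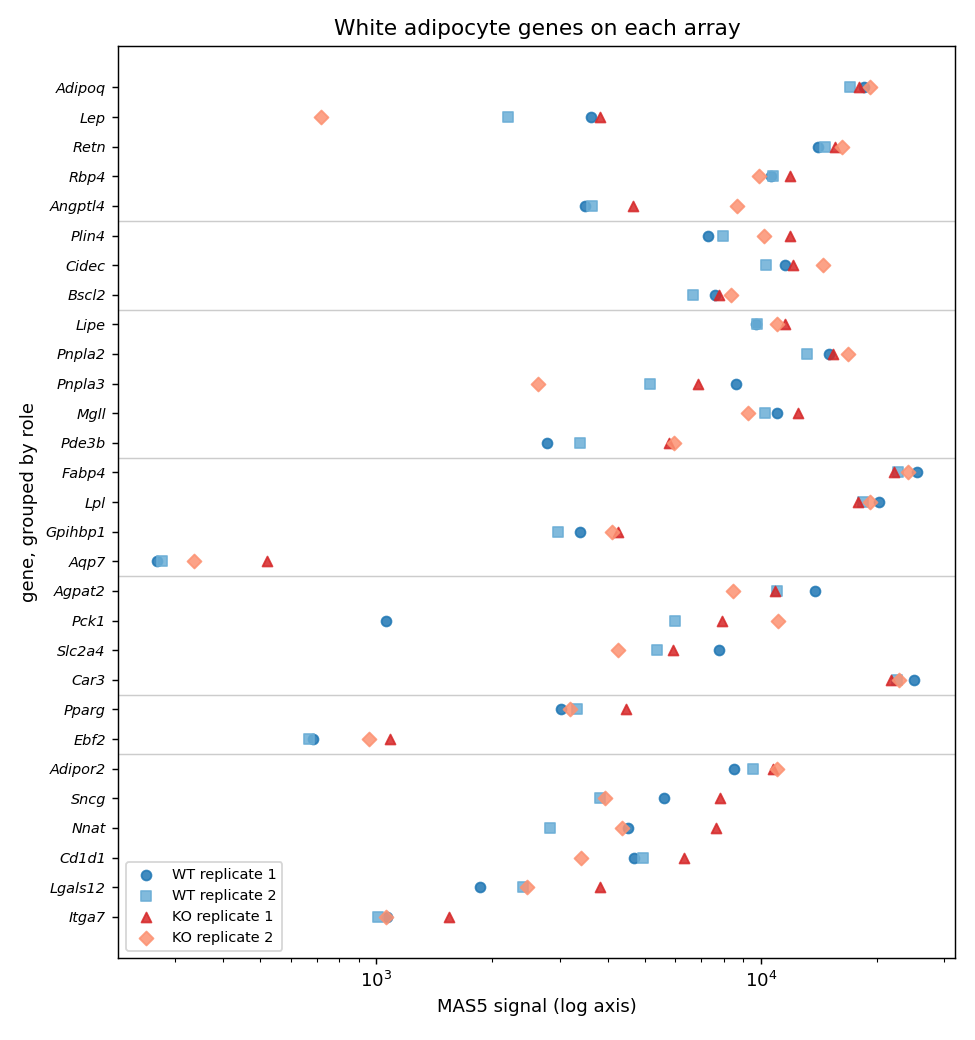
MAS5 signal (log axis) of the 29 measured white adipocyte genes, 1 point per array, with lines between role groups. Adipoq, Fabp4, Lpl and Car3 stand together on all 4 arrays, whereas Lep spans 717 to 3808 and Pck1 spans 1061 to 11065.

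Between KO and WT, 1 of the 29 genes passed the threshold of 0.05 on the adjusted p, Pde3b, which rose. This is 3.45% of the genes, against 2.57% of all 11360 genes tested, of which 1.21% rose and 1.36% fell. The other 28 did not pass. At an unadjusted limma p under 0.05 there were 8 of the 29, against 21.3% of all genes. Differences leaned towards higher values in KO. The log2 difference, KO minus WT on the log2(signal + 16) scale, was above 0 for 21 of the 29 genes (72.4%, against 48.5% of all genes), with a median of 0.21 against -0.01. Both KO arrays lay above both WT arrays for 14 of the 29 (48.3%), where 26.2% of all genes did so, and both lay below for 1, Agpat2 (3.45%, against 27.5% of all genes). In either direction this makes 15 of 29 (51.7%), against 53.7% of all genes. Genes of a shared cell type vary together from animal to animal, so these counts describe the list and carry no test. The median on KO replicate 1 was 0.26 above the WT mean and that on KO replicate 2 was 0.18 above it. For 20 of the 29 genes the 95% interval of the difference, taken gene by gene, lay inside a 2-fold change in either direction. It did not for Lep, Angptl4, Pnpla3, Pde3b, Aqp7, Pck1, Sncg, Nnat and Lgals12. The labels give separate mice per genotype, and the p-values reflect no more than the variation among these 4 animals.

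**Figure D2:**
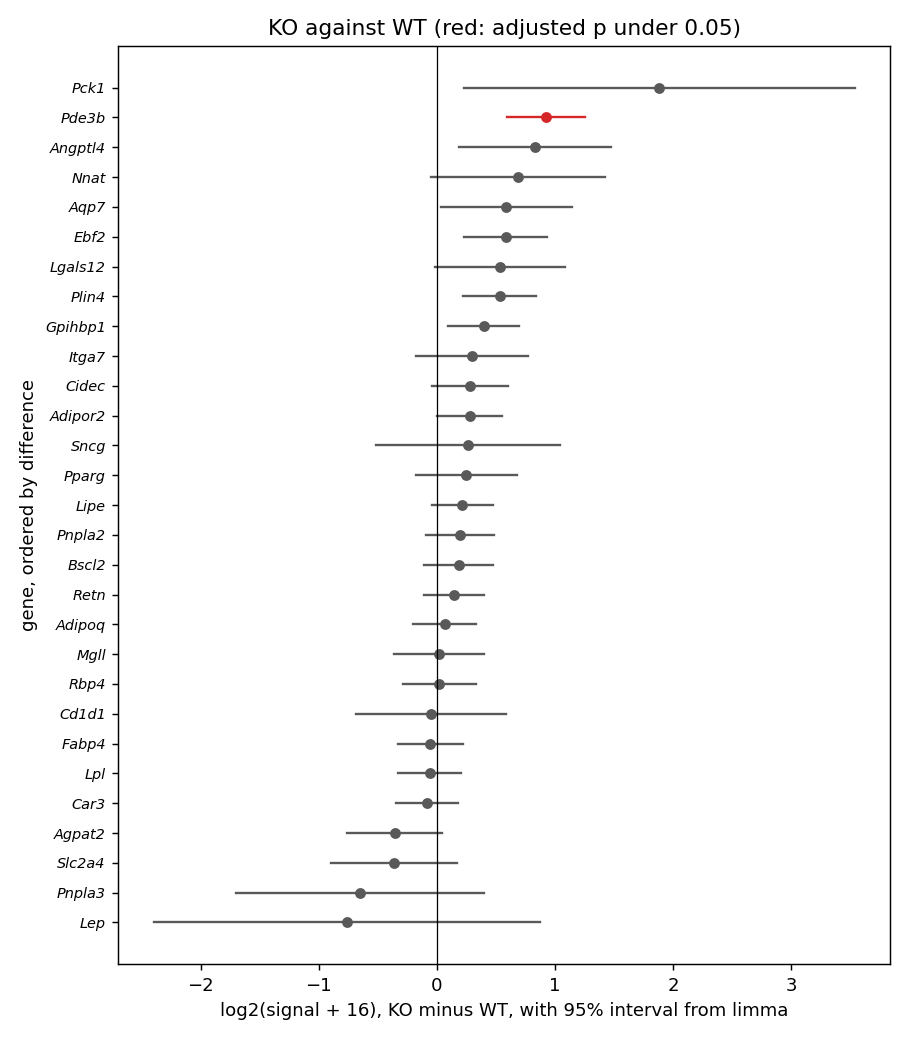
Log2 difference, KO minus WT, of each white adipocyte gene (point) with its 95% interval from limma (line), 2 arrays per genotype. Pde3b, in red, is the gene past the threshold, and the intervals of Pck1 and Lep are the widest.

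Among the adipokines and other secreted proteins, none of 5 genes passed by limma (1 at an unadjusted p under 0.05) and 4 differences lay above 0. Adipoq encodes adiponectin, the abundant insulin-sensitising hormone of fat cells. Its signals were 18499 and 17022 in WT and 17958 and 19208 in KO, replicate 1 before replicate 2 here and in all that follows, with overlapping groups and a log2 difference of 0.07 (SE 0.11, limma adjusted p = 0.797). Retn encodes resistin, a hormone secreted by mouse adipocytes. It stood at 14069 and 14716 in WT and at 15630 and 16261 in KO, so both KO arrays were higher, by 0.15 (SE 0.11, adjusted p = 0.503). Rbp4, which carries retinol in blood, stood at 10653 and 10757 in WT and at 11914 and 9877 in KO, with overlap (log2 difference 0.02, adjusted p = 0.955). These 3 secreted products moved by no more than 0.15 on the log2 scale.

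Lep and Angptl4 behaved otherwise, because KO replicate 2 stood apart from the other arrays. Lep encodes leptin, the satiety hormone that fat cells make in proportion to their fat stores and that falls in fasting. Its signals were 3615 and 2200 in WT and 3808 and 717 in KO, so KO replicate 1 was the highest array and KO replicate 2 the lowest. The KO arrays were 5.22-fold apart on the log2(signal + 16) scale, the genotypes overlapped, and KO minus WT was -0.76 on the log2 scale (SE 0.69, limma adjusted p = 0.600). Without KO replicate 1 the difference was -1.95 and passed (limma adjusted p = 0.0134), and without KO replicate 2 it was 0.43 and did not (adjusted p = 0.424). Angptl4 encodes a secreted inhibitor of lipoprotein lipase that is induced in fasting. Its signals were 3495 and 3643 in WT and 4662 and 8695 in KO, with both KO arrays above both WT arrays and KO replicate 2 highest. The log2 difference was 0.83 (SE 0.27, limma adjusted p = 0.159), and without KO replicate 1 it was 1.28 and passed (adjusted p = 0.00852). Without KO replicate 2 it was 0.38 (adjusted p = 0.231). The name of this probe set ends in _s_at, the platform's mark for probes that can match several transcripts. The representing probe sets of Mgll, Adipor2 and Cd1d1 carry the same mark, as do a further tested probe set of Pck1 and a dimmer one of Car3.

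Lipid droplet genes were higher on both KO arrays in all 3 cases, and none passed by limma (1 at an unadjusted p under 0.05). Of all genes 26.2% were higher on both KO arrays and 21.3% had such a p. Cidec encodes a protein that fuses droplets into the large droplet of white fat. It stood at 11527 and 10304 in WT and at 12101 and 14480 in KO (log2 difference 0.28, SE 0.13, limma adjusted p = 0.311). Plin4 encodes a perilipin that coats nascent droplets. Its signals were 7282 and 7962 in WT and 11918 and 10164 in KO, or 145% of the WT mean, with a log2 difference of 0.53 (SE 0.13, limma adjusted p = 0.0886). Bscl2 encodes seipin, which shapes droplets where they bud from the endoplasmic reticulum, and stood at 7592 and 6679 in WT and 7807 and 8390 in KO (log2 difference 0.18, adjusted p = 0.467). A further Bscl2 probe set also had both KO arrays above both WT arrays, at 4258 and 4398 against 3338 and 3203 (0.40, adjusted p = 0.130).

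Among 5 genes of lipolysis, Pde3b rose. It encodes the phosphodiesterase that breaks down cyclic AMP in adipocytes when insulin signals, and so restrains lipolysis. Its signals were 2783 and 3389 in WT and 5783 and 5930 in KO, or 190% of the WT mean. The groups did not overlap, and the KO arrays were 1.03-fold apart. KO minus WT was 0.93 on the log2 scale (SE 0.14, 95% interval 0.60 to 1.26, limma adjusted p = 0.0338). The call was lost with no filter, with no trend in the variance, centred on epithelial markers and without WT replicate 1 or WT replicate 2, in 5 of 13 alternatives, where the adjusted p was 0.0637 to 0.241. The difference ranged from 0.79 to 1.24 over the 13.

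The lipases themselves differed little. Pnpla2, the gene of adipose triglyceride lipase, which starts lipolysis, stood at 14995 and 13166 in WT and at 15443 and 16803 in KO (log2 difference 0.20, SE 0.12, limma adjusted p = 0.422). Lipe encodes hormone-sensitive lipase, the next enzyme of the path. Its signals were 9705 and 9776 in WT and 11584 and 11019 in KO (0.21, SE 0.11, adjusted p = 0.337). For both genes the KO arrays lay above the WT arrays by a small margin. Mgll, which encodes monoglyceride lipase of the last step, stood at 11019 and 10226 in WT and at 12486 and 9269 in KO, with overlap (0.02, adjusted p = 0.963), and its other 2 tested probe sets also overlapped.

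Pnpla3, a relative of Pnpla2 whose transcript is known to be high in fed and low in fasted mice, varied from animal to animal. Its signals were 8639 and 5165 in WT and 6881 and 2633 in KO. WT replicate 1 was highest, KO replicate 2 was lowest, and the genotypes overlapped (log2 difference -0.65, SE 0.44, limma adjusted p = 0.473). Without KO replicate 1 the difference was -1.34 and passed (adjusted p = 0.0470), and without KO replicate 2 it was 0.04 (adjusted p = 0.951).

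A short search for STAT sites was made where RefSeq promoters were at hand, from 250 bases before to 50 bases after a gene's start on build GRCm38.p6. These covered 18 of the 29 genes, with 27 promoters. The letters TTCNNNGAA, the core that STAT dimers bind, read the same on both strands and occurred in 1 of the 27 promoters (3.70%), against 8.30% of all 32851 promoters in the table. The match lay in a promoter of Lipe, on the minus strand of chromosome 7. It is shown from 250 bases before the start to 6 bases after it, chr7:25395982-25396237, with the match in capitals.
Lipe promoter: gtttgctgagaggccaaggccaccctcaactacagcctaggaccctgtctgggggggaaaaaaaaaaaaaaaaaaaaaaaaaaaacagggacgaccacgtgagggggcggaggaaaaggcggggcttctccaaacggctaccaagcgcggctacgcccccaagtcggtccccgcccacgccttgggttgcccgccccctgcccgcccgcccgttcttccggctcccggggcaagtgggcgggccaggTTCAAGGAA
The match begins 3 bases before the annotated start. Lipe was 116% of the WT mean in KO and did not pass the test. The direct repeat bound by PPAR with RXR, searched on both strands as AGGTCA given 2 times with a spacer of 1 base, occurred in 0 of the 27 promoters and in 0.0396% of all promoters. These matches describe letters in short windows, not bound sites.

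Genes of fatty acid and glycerol handling showed no call by limma among 4 members (2 at an unadjusted p under 0.05), with 2 differences above 0. Fabp4 encodes the fatty acid binding protein of fat cell cytosol. Its probe set stood at 25536 and 22673 in WT and at 22227 and 24147 in KO (log2 difference -0.05, SE 0.12, limma adjusted p = 0.842). Lpl encodes lipoprotein lipase, which frees fatty acids from circulating lipoproteins, and stood at 20293 and 18461 in WT and 17942 and 19176 in KO (-0.06, SE 0.11, adjusted p = 0.814). Both probe sets overlapped between genotypes. A second bright Lpl probe set did not, at 16578 and 15451 in WT and 17495 and 17510 in KO (0.13, adjusted p = 0.564). Gpihbp1 encodes the protein that holds lipoprotein lipase on capillary endothelium, so its transcript is endothelial. It stood at 3381 and 2975 in WT and at 4242 and 4111 in KO, higher on both KO arrays by 0.40 (SE 0.13, limma adjusted p = 0.158). Aqp7, the glycerol channel of fat cells, was at 269 and 278 in WT and at 521 and 337 in KO (0.59, SE 0.23, adjusted p = 0.230). It was 0.28 without KO replicate 1, and its other probe set overlapped (0.07).

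Of the 4 genes of triglyceride and glucose metabolism, none passed by limma (1 at an unadjusted p under 0.05) and 3 lay below 0. Agpat2, an acyltransferase of triglyceride synthesis, was the single white adipocyte gene with both KO arrays below both WT arrays, at 10896 and 8482 against 13789 and 10998 (log2 difference -0.36, SE 0.17, limma adjusted p = 0.307). Slc2a4 encodes GLUT4, the insulin-responsive glucose transporter. It stood at 7785 and 5364 in WT and at 5924 and 4250 in KO, overlapping (-0.36, SE 0.23, adjusted p = 0.428), as did a dimmer probe set of it (-0.25). Car3, a carbonic anhydrase that is abundant in fat, stood at 24990 and 22527 in WT and at 21843 and 22912 in KO (-0.08, adjusted p = 0.727).

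Pck1 had the largest difference of the list and did not pass. It encodes phosphoenolpyruvate carboxykinase, which in fat makes glycerol phosphate for re-esterification and is known to be induced in fasting and suppressed by insulin. Its signals were 1061 and 5999 in WT and 7943 and 11065 in KO. WT replicate 1 lay far below the other 3 arrays, and both KO arrays lay above both WT arrays. The WT arrays were 5.59-fold apart, and KO minus WT was 1.88 on the log2 scale (SE 0.70, 95% interval 0.23 to 3.54, limma adjusted p = 0.206). With WT replicate 1 left out it was 0.64 (adjusted p = 0.276). With WT replicate 2 left out it was 3.12 and passed (adjusted p = 0.0131). A second tested probe set had the same order of arrays, at 694 and 4353 in WT and 5818 and 8671 in KO (2.02, adjusted p = 0.202). Centred on epithelial markers, Pck1 passed with a difference of 2.20 (limma adjusted p = 0.000338).

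Both transcription factors lay above 0 and neither passed by limma (Ebf2 at an unadjusted p of 0.00593). Pparg encodes the nuclear receptor that drives adipocyte differentiation, and stood at 3028 and 3320 in WT and 4466 and 3191 in KO, overlapping (log2 difference 0.25, SE 0.18, limma adjusted p = 0.499). Without KO replicate 1 the difference was 0.0094 and without KO replicate 2 it was 0.49. Ebf2 encodes a factor of preadipocytes that is also linked to brown fat identity. Its signals were 685 and 669 in WT and 1087 and 958 in KO, or 151% of the WT mean (0.58, SE 0.15, adjusted p = 0.0950). Its other 2 probe sets also had both KO arrays above both WT arrays (0.37 and 0.35).

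The receptors and other genes gave no call by limma among 6 (1 at an unadjusted p under 0.05), with 5 differences above 0. Adipor2, an adiponectin receptor, stood at 8504 and 9514 in WT and at 10770 and 11043 in KO (log2 difference 0.28, SE 0.12, limma adjusted p = 0.254). Its other probe set went the other way, with both KO arrays below both WT arrays (-0.38, adjusted p = 0.248), so its direction depends on the probe set. Nnat, an imprinted gene of the endoplasmic reticulum found in fat and brain, was at 4525 and 2831 in WT and 7655 and 4350 in KO (0.69, SE 0.31, limma adjusted p = 0.282). Lgals12, a galectin of lipid droplets, stood at 1857 and 2411 in WT and at 3818 and 2472 in KO (0.53, adjusted p = 0.266). In Nnat and Lgals12 KO replicate 1 was the highest array, and so it was in Sncg, Cd1d1 and Itga7. Sncg encodes gamma-synuclein and stood at 5585 and 3816 in WT and 7812 and 3933 in KO (0.26, adjusted p = 0.712). Cd1d1, a lipid-presenting molecule, stood at 4685 and 4935 in WT and at 6300 and 3412 in KO (-0.05, adjusted p = 0.939). Itga7, an integrin chain also made by muscle, stood at 1070 and 1009 in WT and 1544 and 1062 in KO (0.30, adjusted p = 0.462). Nnat, Sncg, Cd1d1 and Itga7 overlapped between genotypes, whereas in Lgals12 both KO arrays lay above both WT arrays. With a KO array left out, Nnat ran from 0.28 to 1.09, Lgals12 from 0.22 to 0.85 and Itga7 from 0.03 to 0.56, in each case lower without KO replicate 1.

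Within a genotype, some adipocyte genes differed between animals by more than the genotypes did. The median absolute log2 difference between the KO arrays was 0.27 over the 29 genes, against 0.18 over all genes tested, and between the WT arrays 0.16 against 0.16. Over the 828 genes tested that were as bright as the lower quartile of the 29 or brighter, it was smaller. It was 0.13 between the KO arrays and 0.13 between the WT arrays, and 0.604% and 0.242% of these genes were more than 2-fold apart. Between the WT arrays Pck1 was more than 2-fold apart, or 1 of 29 genes (0.986% of all genes), and between the KO arrays Lep and Pnpla3 were, or 2 of 29 (1.83% of all genes). The KO arrays differed less than those of Lep in 99.9% of genes and less than those of Pnpla3 in 99.4%. KO replicate 1 was the highest array for 14 of the 29 genes, KO replicate 2 for 9, WT replicate 1 for 6 and WT replicate 2 for 0. KO replicate 2 was the lowest array for 7, among them Lep, Pnpla3, Slc2a4 and Agpat2.

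**Figure D3:**
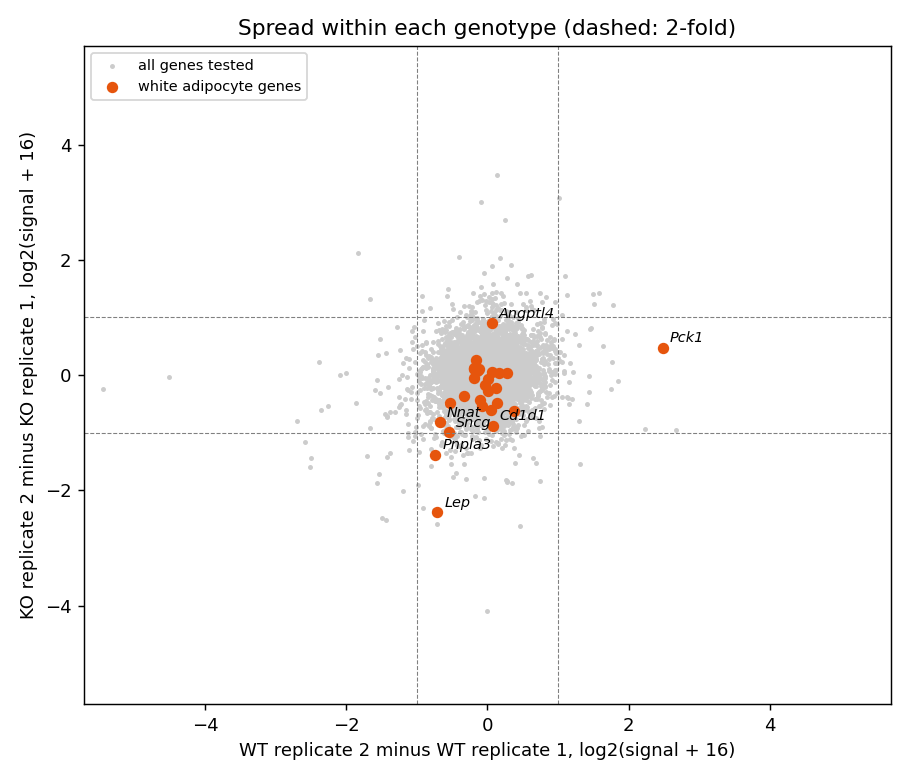
Log2 difference between the 2 WT arrays (horizontal) and between the 2 KO arrays (vertical) for all 11360 genes tested (grey) and the 29 white adipocyte genes (orange), with dashed lines at 2-fold. Pck1 lies beyond 2-fold between the WT arrays, and Lep and Pnpla3 between the KO arrays.

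For Fabp4 and Car3 the value depended on the probe set. The representing probe set of Fabp4 gave the highest signal of all probe sets on WT replicate 1 and on KO replicate 2, and its arrays spanned a ratio of 1.15. A dimmer Fabp4 probe set stood at 3606 and 6393 in WT and at 8610 and 8979 in KO (log2 difference 0.87, SE 0.25, limma adjusted p = 0.124), and another at 1886 and 3084 in WT and 3801 and 4009 in KO (0.69, adjusted p = 0.163). In both, both KO arrays were higher than both WT arrays and WT replicate 1 was the lowest. The remaining Fabp4 probe set overlapped (0.02). Car3 showed the same split. A second bright probe set overlapped between genotypes (-0.03), whereas the others stood at 2302 and 5106 in WT and 7857 and 7335 in KO (1.14, SE 0.33, adjusted p = 0.127) and at 1088 and 3223 in WT and 4730 and 4005 in KO (1.21, adjusted p = 0.203). WT replicate 1 was again the lowest array. None of these probe sets passed. Whether signals near the top of the array's scale are compressed was not tested.

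**Figure D4:**
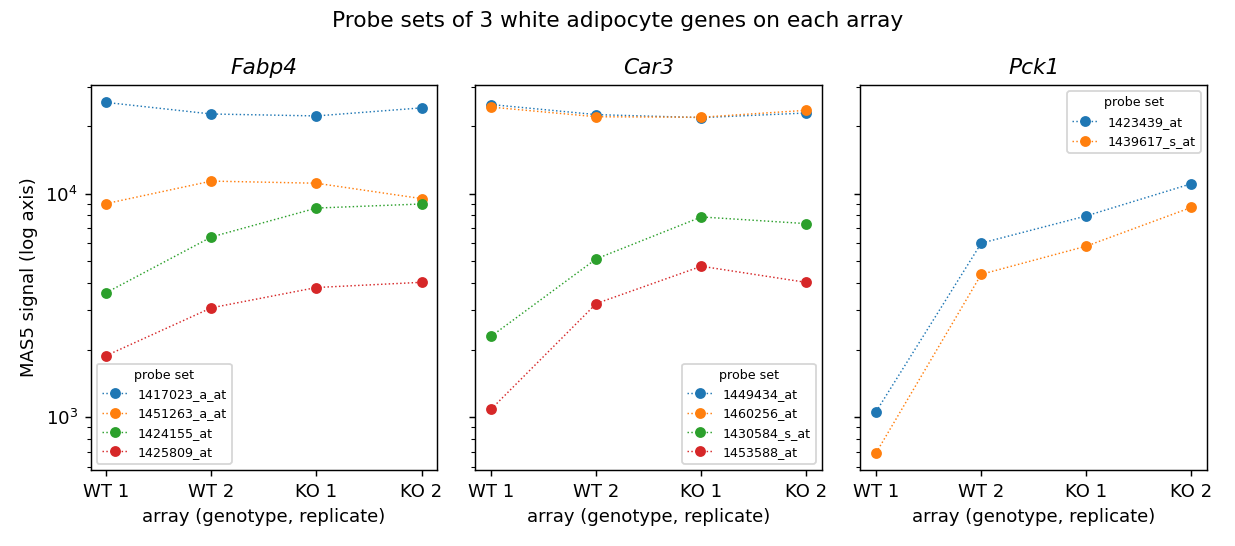
MAS5 signal (log axis) of each probe set of Fabp4, Car3 and Pck1 with a mean above 100, on the 4 arrays. Dotted lines join the values of a probe set and imply no order. The bright probe sets of Fabp4 and Car3 are level, whereas the dimmer ones are lowest on WT replicate 1, at 1886 and 3606 for Fabp4 and at 1088 and 2302 for Car3.

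Other adipocyte genes outside the 29 also had a median difference above 0. Of 47 tested in 6 groups, Klf15 rose, 0 fell and 46 did not pass, with a median log2 difference of 0.16 and both KO arrays above both WT arrays in 21 (44.7%, against 26.2% of all genes). This is 2.13% called, against 2.57% of all genes. Klf15, a transcription factor of adipocyte differentiation and fasting metabolism, stood at 953 and 826 in WT and at 1674 and 1765 in KO (0.94, SE 0.14, limma adjusted p = 0.0353). Its call was lost centred on epithelial markers, with no filter, with no trend and without WT replicate 1 or WT replicate 2 (adjusted p = 0.0574 to 0.204). The calls of the list changed with an array left out. Its median lay 0.20 above the WT mean on KO replicate 1 and 0.15 above it on KO replicate 2. Centred on array medians the list had 4 calls, all higher, where 311 of 11360 genes were called. Of the 47 genes, 15 had an unadjusted limma p under 0.05, where 21.3% of all genes did. In the group of 10 transcription factors the median was 0.29, and Cebpa, a partner of PPAR-gamma in differentiation, stood at 9499 and 12377 in WT and 13905 and 13149 in KO (0.32, adjusted p = 0.302). Of 6 droplet and lipolysis genes none passed (median 0.36). There Acer2, a ceramidase, differed by 0.88 (adjusted p = 0.0576) and the lipase gene Ces1d by 0.60 (adjusted p = 0.0620), and Plin2, a droplet coat protein of many cells, by -0.32 (adjusted p = 0.320). None of 6 hormone receptor and signalling genes passed (median 0.31), with 1.21 for Acvr1c, an activin receptor of fat cells (adjusted p = 0.0812), 0.73 for the insulin receptor gene Insr (adjusted p = 0.0790) and 0.06 for the growth hormone receptor gene Ghr (adjusted p = 0.888).

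The 12 genes of fatty acid and triglyceride synthesis were the group with a median below 0, at -0.18, and none passed. Elovl6, a fatty acid elongase, stood at 11914 and 9617 in WT and at 12294 and 3516 in KO, lowest on KO replicate 2 like Lep and Pnpla3 (-0.70, limma adjusted p = 0.505). Gpd1, which makes glycerol phosphate from glucose, stood at 12605 and 9632 in WT and 8899 and 5901 in KO (-0.60, adjusted p = 0.201), and Fasn, the fatty acid synthase gene, differed by -0.12 (adjusted p = 0.605). None of 7 uptake and caveola genes passed (median 0.16), with 0.38 for Vldlr, 0.36 for Cavin1 and 0.16 for Cd36 (adjusted p = 0.265, 0.239 and 0.551). None of 6 secreted and surface proteins passed (median 0.35). Agt, the angiotensinogen gene, stood at 288 and 391 in WT and 723 and 2199 in KO (1.86, adjusted p = 0.0935), Lrp1 differed by 0.58 (adjusted p = 0.0597) and Apoe by 0.00 (adjusted p = 0.994).

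Markers of other cells also differed between arrays. General epithelial markers, 21 tested, had a median of -0.45, at -0.67 for KO replicate 1 and -0.14 for KO replicate 2. Their summed signals were 64186 and 68289 in WT and 43875 and 68517 in KO. KO replicate 1 was the lowest array for 15 of these markers and KO replicate 2 for 1. Both KO arrays lay below both WT arrays for 11 of the 21 (52.4%, against 27.5% of all genes). They lay above both WT arrays for 3 (14.3%, against 26.2% of all genes). Of these Krt7 rose (1.02, limma adjusted p = 0.0484), Ehf fell (-1.78, adjusted p = 0.0435), both with calls lost when either WT array was left out (adjusted p = 0.0924 to 0.197), and 19 did not pass, and Krt18, a keratin of luminal cells, differed by 0.30 (adjusted p = 0.42). In the fit of all 4 arrays, 10 of the 21 had an unadjusted limma p under 0.05, where 21.3% of all genes did. Skeletal muscle markers, 14 tested, had a median of 2.35, and 6 rose and 0 fell, where 1.21% of all genes rose. The count was 0 with no filter (15 at an unadjusted limma p under 0.05), 2 with no trend, 1 of 7 tested without KO replicate 1 and 10 with a pseudocount of 64. Their summed signals were 4122 and 2166 in WT and 14016 and 8184 in KO, and Myh4, a fast myosin, rose by 3.30 (adjusted p = 0.0138), Tnnc2, a fast troponin, by 2.85 (adjusted p = 0.0297), the myosin gene Myh1 by 2.51 (adjusted p = 0.0395) and Eno3, a muscle enolase, by 0.998 (adjusted p = 0.0434), while Myl1 differed by 0.25 (adjusted p = 0.799). Without WT replicate 2 these 4 calls were lost (adjusted p = 0.0538 to 0.210), and that of Eno3 also without WT replicate 1 (0.0819) and without KO replicate 1 (0.0614). Myh1 and Tnnc2 were too dim to be tested without KO replicate 1, and Myh1 also without KO replicate 2. Summed signals of the 29 white adipocyte genes were 250913 and 232783 in WT and 272966 and 258346 in KO. Centred on the epithelial markers, the median of the white adipocyte genes was 0.53 and that of all genes 0.30. The part of epithelial and muscle content in the adipocyte values was not tested.

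Brown adipocyte markers, 12 tested, had a median of -0.24, and 0.08 centred on epithelial markers, where the white adipocyte genes stood at 0.53. They had summed signals of 23382 and 27332 in WT and 15242 and 18988 in KO. Ucp1, the uncoupling protein that makes heat in brown fat, fell by 2.66 (SE 0.32, limma adjusted p = 0.0228), from 4614 and 9828 in WT to 1038 and 1066 in KO. This call was kept with any array left out and lost with no filter (adjusted p = 0.0905). The other 11 did not pass, and Cox8b, a respiratory chain subunit of brown fat, differed by -0.14 (adjusted p = 0.687). Of the 12 differences, 10 lay below 0 and 2 above, and 6 had an unadjusted limma p under 0.05, where 21.3% of all genes did. Both KO arrays lay below both WT arrays for 5 of the 12 (41.7%, against 27.5% of all genes). They lay above both for 1 (8.33%, against 26.2% of all genes).

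**Figure D5:**
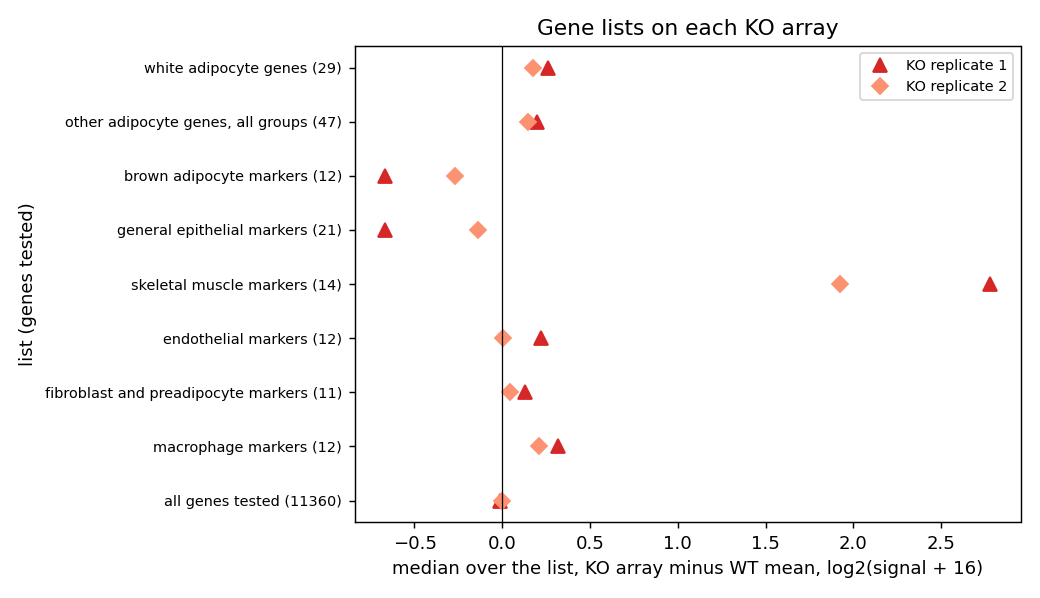
Median over each list of the log2 difference between a KO array and the WT mean, for KO replicates 1 and 2, with the number of genes tested in parentheses. White adipocyte genes stand at 0.26 and 0.18 and other adipocyte genes at 0.20 and 0.15, epithelial and brown adipocyte markers below 0, and muscle markers at 2.78 and 1.92.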

How the data were processed

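RNA of 4 mammary tissue samples was read on 1 array each. The submitters' processing notes name MAS5, with no version or settings given in the sources used here, and the authors deposited 1 linear intensity per probe set and array. The mean of an array after trimming 2% at either end was 500, as read from the values, and no detection calls were used. Of 45101 probe sets, 64 controls were left out, and of the others 34945 had 1 gene symbol, 932 several and 9160 are unnamed here. The platform annotation that gave the symbols can be old.

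Values were transformed as log2(signal + 16), which understates changes of dim genes. Probe sets at or above the median mean log2 value (7.15) were tested, 22519 in all, with limma 3.58.1 in R 4.3.3 (lmFit, eBayes with a trend) and p-values adjusted by Benjamini-Hochberg across these probe sets, at 0.05. With 2 residual degrees of freedom per probe set, the number of arrays limits precision, and an exact permutation test of 2 against 2 cannot go below 0.333. On simulated arrays of 22519 probe sets, 77% of 100 2-fold changes, 1 on the log2 scale, were recovered. Of 100 changes of 2 on the log2 scale, 99% were recovered, and there were 20 false calls among the unchanged probe sets. The simulated noise was independent between probe sets, whereas genes of a cell type vary together. The share of false calls in the real data was not tested. Replicates were numbered within a genotype in order of deposit, so numbers pair no animals.

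The members and all gene lists were chosen with earlier results of these data known, so their counts are descriptions. All 4 values were given for genes past the threshold, for genes over 2-fold apart within a genotype, for the brightest gene of each role group and for the defining adipocyte genes, and further measured genes were added. Of each other list, up to 4 genes past the threshold or, failing these, the 2 with the largest difference, and the brightest gene, were named. Alternatives covered pseudocounts of 1 and 64, scaling, filtering, the variance trend, the mean of a gene's probe sets (tested if that mean reached the same limit) and leaving out each array. Promoters came from RefSeq, build GRCm38.p6.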

Additional observations from a re-analysis of the deposited data

How the results depend on the processing

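The median of the white adipocyte genes stayed above 0 in all 13 alternatives. It moved from 0.21 to 0.53 centred on epithelial markers, which moved the median of all genes to 0.30, and was 0.18 to 0.26 with an array left out. The count of white adipocyte genes called, 1, was 0 by limma with no filter and 0 with no trend (7 at an unadjusted p under 0.05 in each). With an array left out the calls changed too. Without KO replicate 1 the differences of Pde3b, Lep, Pnpla3 and Angptl4 were 0.95, -1.95, -1.34 and 1.28. Centred on epithelial markers, and also without WT replicate 2, the 1 call was Pck1 and not Pde3b. Over all genes, 292 calls became 149 centred on epithelial markers, 27 with no filter, 127 with the filter at the 75th percentile and 137 with no trend, and 44 to 599 with an array left out (100 without WT replicate 1, 44 without WT replicate 2, 599 without KO replicate 2). Of these calls 47.3% were higher in KO, against 61.7% centred on array medians and 72.5% centred on epithelial markers. With no filter more probe sets are tested. The cause of the other changes was not tested.

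Of the 29 genes, 19 kept their sign in every alternative. The genes that changed sign had no call in the fit of all 4 arrays, though Lep and Pnpla3 were called without KO replicate 1. Centred on array medians, Fabp4 was at 0.027, Lpl at 0.020 and Cd1d1 at 0.030. Centred on epithelial markers, Fabp4 was at 0.26, Car3 at 0.23, Lpl at 0.25 and Cd1d1 at 0.26. With the mean of all probe sets, Fabp4 was at 0.38, Car3 at 0.56, Lpl at 0.034, Cd1d1 at 0.047, Adipor2 at -0.053 and Mgll at -0.034. After quantile normalization Fabp4 was at 0. With an array left out, Fabp4 ran from -0.14 to 0.031, Lpl from -0.13 to 0.0068, Cd1d1 from -0.49 to 0.39, Mgll from -0.20 to 0.23, Sncg from -0.23 to 0.76, Rbp4 from -0.12 to 0.15, Pnpla3 from -1.34 to 0.043 and Lep from -1.95 to 0.43. Aqp7 was not tested with the filter at the 75th percentile, and with an array left out the lone array of a genotype is assumed to vary like the others. No paired analysis was possible because the labels give the genotypes no shared replicate numbers. Without detection calls, how far a signal lies above background is unknown.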

Other observations

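Trarg1, the gene that RefSeq lists as the current name of Tusc5, a partner of GLUT4 trafficking in fat, had a probe set under its newer symbol and was not counted among the 29. Its signals were 3156 and 2668 in WT and 3832 and 2264 in KO, so KO replicate 1 was the highest array and KO replicate 2 the lowest, as for Lep (log2 difference 0.02, SE 0.25, limma adjusted p = 0.973).

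Among other cells of the fat pad, 12 endothelial markers had a median difference of 0.13, 11 fibroblast and preadipocyte markers 0.07 and 12 macrophage markers 0.31. Endothelial and macrophage markers gave 0 calls by limma (1 and 7 genes at an unadjusted p under 0.05). The endothelial Robo4, a vessel guidance receptor, differed by 0.54 (adjusted p = 0.102), Vwf, the von Willebrand factor gene, by 0.28 (adjusted p = 0.388) and Eng by 0.26 (adjusted p = 0.358), and the macrophage genes Cd14 and C1qc by 0.80 and 0.65 (adjusted p = 0.110 and 0.123) and Lyz2 by -0.15 (adjusted p = 0.563). Of the fibroblast markers Fbln1, a matrix protein, rose by 1.02 (adjusted p = 0.0298), from 1117 and 1242 in WT to 2325 and 2489 in KO, and Col3a1, a fibrillar collagen, differed by -0.08 (adjusted p = 0.743). Fbln1 lost its call centred on epithelial markers, with no filter, with no trend, without WT replicate 1 and without WT replicate 2.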
